A study of Mus musculus with 8 samples.

Results

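Methylation of CpG sites in mouse embryonic stem cells was compared between day 2 and day 5 of culture without vitamin C. The cells, of strain 129/SvP, grew at low density in medium with fetal bovine serum and leukaemia inhibitory factor (LIF), a cytokine that keeps stem cells dividing as such. They were either left untreated or given 1 mM L-proline, an amino acid. This gave 4 libraries of reduced representation bisulfite sequencing (RRBS), an untreated pair and an L-proline pair, each with 1 library on day 2 and 1 on day 5, among the 8 libraries of the series. The other 4 libraries come from cells given 500 µM vitamin C, alone or with 1 mM L-proline, on the same days. The compared sites were the 692306 CpGs on chromosomes 1 to 19 that had at least 10 reads in each of the 4 libraries, out of 1002817 listed on these chromosomes in any of the 8. The sources used here give no culture, passage or batch, so the 2 libraries of a pair may or may not come from 1 culture.

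DNA methylation in mammals sits mostly on the cytosine of CpG sites, where DNMT3A and DNMT3B place it anew and DNMT1 copies it to the new strand after replication, while TET enzymes oxidise it and open a way to its removal. Embryonic stem cells in serum and LIF carry the de novo enzymes, and CpG-dense promoters of active genes stay largely unmethylated. Promoters of a set of germline genes are a known exception, since methylation keeps these genes silent outside germ cells. RRBS reads fragments cut by a restriction enzyme at CpG-containing sites and so favours CpG-rich DNA. Bisulfite turns unmethylated cytosine into uracil, and it does not separate 5-methylcytosine from 5-hydroxymethylcytosine.

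The sequences of 6 promoters show where such CpGs lie. They were picked after their values were seen, 4 from a list of germline genes and 2 for the largest gain common to both pairs. The RefSeq sequences (build GRCm38.p6, the 250 bases before the start of the gene, in the direction of the gene) were placed on the listed mm9 positions by their pattern of CpG spacing. Capitals mark the CpGs with values in all 4 libraries. Further CpGs with values lie within 50 bases after the start in Mael, Ddx4 and C1qtnf2.
Sycp1: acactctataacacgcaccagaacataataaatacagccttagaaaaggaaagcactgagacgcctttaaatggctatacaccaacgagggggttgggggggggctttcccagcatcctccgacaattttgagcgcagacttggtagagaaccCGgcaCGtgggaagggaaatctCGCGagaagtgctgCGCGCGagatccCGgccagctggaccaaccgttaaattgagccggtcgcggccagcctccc
Hormad1: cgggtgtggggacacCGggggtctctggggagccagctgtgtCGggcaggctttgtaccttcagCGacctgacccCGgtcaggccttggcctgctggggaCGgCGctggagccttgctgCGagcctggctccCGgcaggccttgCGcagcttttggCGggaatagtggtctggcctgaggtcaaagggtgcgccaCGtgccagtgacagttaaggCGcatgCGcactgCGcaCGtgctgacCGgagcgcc
Mael: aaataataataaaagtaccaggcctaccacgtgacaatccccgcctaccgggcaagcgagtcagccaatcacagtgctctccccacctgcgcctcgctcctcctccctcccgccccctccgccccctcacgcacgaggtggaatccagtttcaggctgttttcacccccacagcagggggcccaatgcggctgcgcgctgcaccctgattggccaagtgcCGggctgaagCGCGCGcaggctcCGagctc
Ddx4: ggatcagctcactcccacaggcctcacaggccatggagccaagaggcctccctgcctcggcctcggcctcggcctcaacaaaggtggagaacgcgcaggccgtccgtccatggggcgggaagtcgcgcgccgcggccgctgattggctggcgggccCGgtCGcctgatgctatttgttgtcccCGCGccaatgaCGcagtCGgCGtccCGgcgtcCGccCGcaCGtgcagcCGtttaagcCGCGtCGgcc
C1qtnf2: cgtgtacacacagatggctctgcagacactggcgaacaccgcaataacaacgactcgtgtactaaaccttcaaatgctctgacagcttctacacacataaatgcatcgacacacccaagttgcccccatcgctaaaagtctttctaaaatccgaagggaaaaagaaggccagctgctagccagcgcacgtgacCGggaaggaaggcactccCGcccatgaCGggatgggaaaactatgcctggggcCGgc
Entpd1: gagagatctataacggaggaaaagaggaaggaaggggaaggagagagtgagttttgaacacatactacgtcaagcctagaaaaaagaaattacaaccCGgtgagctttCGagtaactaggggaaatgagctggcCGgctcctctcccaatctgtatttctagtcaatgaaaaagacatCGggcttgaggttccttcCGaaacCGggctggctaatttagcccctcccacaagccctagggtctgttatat

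Methylation was higher on day 5 than on day 2 in both pairs. Mean CpG methylation was 22.4% in untreated cells on day 2 and 24.8% on day 5, and 24.9% and 27.8% with L-proline. The differences were 2.40 and 2.84 percentage points, a mean of 2.62 ± 0.311 points (SD, n = 2 pairs). An exact sign-flip permutation test over 2 pairs cannot go below p = 0.5, so the means carry no test. The day 5 library of untreated cells and the day 2 library with L-proline had nearly the same mean, with untreated day 2 below and L-proline day 5 above them. Over pooled reads the 4 libraries stood at 15.8% (95% Wilson interval 15.80 to 15.83), 19.3% (19.32 to 19.35), 20.1% (20.05 to 20.07) and 23.4% (23.40 to 23.43), where the intervals cover counting error only. Median coverage of the compared CpGs was 37 reads in untreated cells on day 2, 29 on day 5, and 36 in both L-proline libraries. On the lambda contig, customarily an unmethylated control, 0.293% and 0.513% of cytosines were read as methylated in the untreated pair and 0.475% and 0.490% in the L-proline pair. CpGs with no methylated read in either library of the other pair gave a like measure within the genome, with differences of 0.0715 points in untreated cells (270431 CpGs) and 0.293 points with L-proline (291107 CpGs).

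The share of CpGs near full methylation was larger on day 5, and the share with little methylation was smaller. CpGs under 5% made up 63.9% on day 2 and 62.1% on day 5 in untreated cells, and 62.3% and 59.2% with L-proline. CpGs with no methylated read at all, a share that also varies with depth, made up 51.7% on day 2 and 52.0% on day 5 in untreated cells, and 48.9% and 49.2% with L-proline. CpGs at 80% or above went from 14.9% to 18.9% of the total in untreated cells and from 19.3% to 22.6% with L-proline. Those at 95% or above went from 4.26% to 6.82% and from 6.92% to 11.5%. CpGs between 20% and 80% made up 14.6% on day 2 and 12.05% on day 5 in untreated cells, and 11.7% and 10.7% with L-proline. The gain was spread over the genome: the difference ranged from 2.10 points on chromosome 3 to 2.73 on chromosome 5 in untreated cells, and from 2.44 on chromosome 3 to 3.25 on chromosome 10 with L-proline.

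The gain differed by starting level, and its profile was not the same in the pairs. CpGs were classed by the vitamin C library of day 2, which enters neither pair, so that chance readings of a pair's own day 2 library could not sort its gains. CpGs under 5% gained 0.41 points (untreated) and 1.10 points (L-proline), and those at 5 to 20% gained 5.65 and 9.85. In this classing the highest mean gains stood at 20 to 40%. There untreated cells went from 43.5% to 54.5% (10.997 points) and L-proline cells from 53.9% to 66.4% (12.6 points). From 40% upward the order of the pairs turned in this classing. Untreated cells gained 9.51 points at 40 to 60%, 6.74 at 60 to 80% and 3.87 at 80 to 95%, and L-proline cells 8.39, 4.796 and 2.36. In these upper classes L-proline cells were already at 72.4%, 86.3% and 91.8% on day 2, against 63.5%, 79.2% and 87.0% in untreated cells. As a share of the part still unmethylated on day 2, the gains of these classes were 26.01%, 32.4% and 29.8% in untreated cells and 30.5%, 34.9% and 28.8% with L-proline. Below 20% the share was lower in both pairs, 6.63% and 12.4% at 5 to 20% and 0.42% and 1.12% under 5%.

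**Figure D1:**
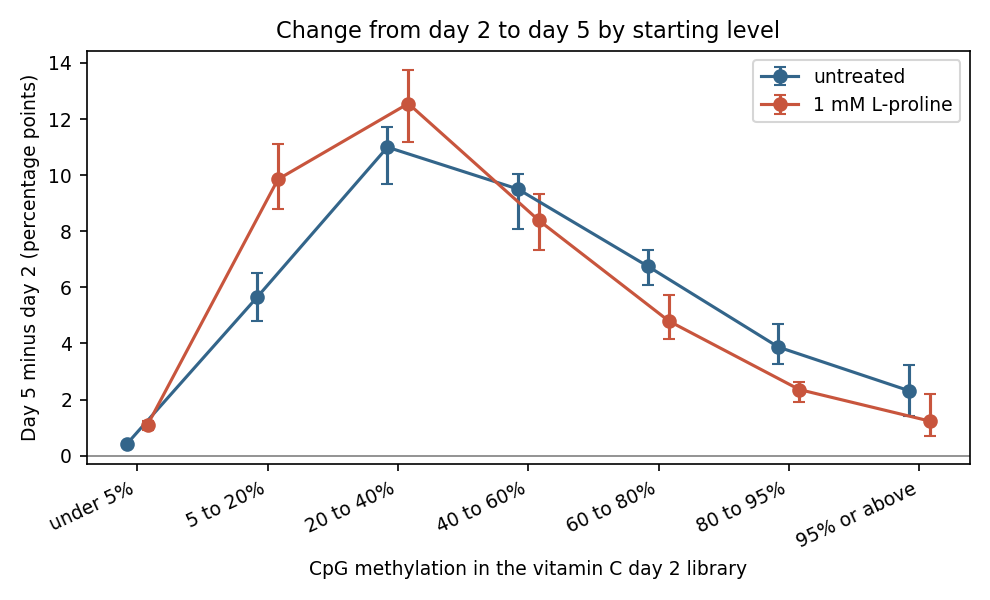
Mean difference between day 5 and day 2 (percentage points, vertical axis) for CpGs classed by their methylation in the vitamin C library of day 2 (horizontal axis), in the untreated and the L-proline pair. Points are means over all CpGs of a class, bars run from the lowest to the highest of the 19 autosomes, and both curves peak at 20 to 40%, with L-proline above untreated below 40% and under it from 40% upward.

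With the L-proline library of day 2 as the classing library, CpGs of 20 to 80% gained 10.3 points in untreated cells. With the untreated library of day 2, they gained 9.87 points with L-proline. These CpGs made up 11.7% and 14.6% of the total and held 50.1% and 50.6% of the whole gain. CpGs under 5% in the untreated day 2 library made up 63.9% of the total and held 16.6% of the L-proline gain. The same class by the L-proline library held 4.21% of the untreated gain. Classed by the vitamin C library of day 2 in both pairs, it held 26.9% (L-proline) and 12.1% (untreated). By the day 2 library of the other pair, the untreated gain was highest at 60 to 80% (11.4 points, against 8.47 at 20 to 40%). The L-proline gain was again highest at 20 to 40% (14.6 points). At 40 to 60% L-proline cells gained 11.3 points and untreated cells 10.5. Here the pairs were classed by different libraries and so over unlike CpGs, and the order of the pairs cannot be read from these values.

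The gain was larger in CpG-poor than in CpG-dense stretches. In tiles of 1 kb with 3 to 5 compared CpGs, methylation went from 61.0% to 66.9% in untreated cells and from 67.3% to 73.6% with L-proline. In tiles with 11 to 20 CpGs it went from 7.75% to 9.17% and from 9.15% to 11.5%, and with 41 or more from 0.751% to 0.893% and from 0.873% to 1.18%. Dense tiles start low, so the order was read again within a starting level. Among CpGs at 5 to 20% in the vitamin C library of day 2, the gain fell from 9.14 points (untreated) and 15.99 points (L-proline) in tiles of 3 to 5 CpGs to 1.84 and 3.88 in tiles of 21 to 40 and 0.557 and 1.44 in tiles of 41 or more. The day 2 level in the same tiles fell too, from 23.1% and 32.5% to 2.82% and 3.41%, although the vitamin C library put all these CpGs in 1 class. Among CpGs at 40 to 60% the order was not the same: tiles of 3 to 5 CpGs gained 9.41 and 8.23 points, and tiles of 11 to 20 CpGs gained 11.01 and 11.2.

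At single CpGs, methylated and unmethylated reads of the 2 libraries of a pair were set against each other in Fisher's exact test (two-sided). A CpG counted as called if its Benjamini-Hochberg adjusted p was under 0.05 and its difference was 20 points or more. These tests compare libraries, not conditions. In untreated cells 773 CpGs were higher on day 5 (0.112% of those tested) and 9 lower (0.0013%). With L-proline 5634 were higher (0.814%) and 64 lower (0.00924%). The called CpGs had a median of 28.6% on day 2 and 82.1% on day 5 in untreated cells, and 26.2% and 75.4% with L-proline. Most started between 20 and 80%, 63.4% and 59.4% of the calls, and 9.70% and 14.3% started under 5%. The counts vary with depth, which was lowest in the untreated day 5 library: of the 461014 CpGs read at least 20 times in each library, tested on their own with a separate adjustment, 793 (untreated) and 4788 (L-proline) were called higher at full depth, and 2 and 42 after thinning to 20 reads.

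The same single CpGs were seldom called in both pairs, though the called ones of one pair were mostly higher in the other. Called higher in both were 92 CpGs (0.0133% of those tested), 11.9% of the untreated list and 1.63% of the L-proline list. The untreated calls averaged a gain of 17.0 points in the L-proline pair and 88.0% of them were higher there, against 2.84 points and 37.7% over all CpGs. The L-proline calls averaged 12.1 points in the untreated pair and 79.8% of them were higher, against 2.40 points and 34.9%. The pairs share no library. Among CpGs with 50 or more reads in each library, 24 of 113 untreated calls (21.2%) were also called with L-proline, where 0.904% of all such CpGs were called. Most CpGs have little methylation, so a closer baseline is that of CpGs at 20 to 80% in the vitamin C library of day 2. Of these, at the same depth, 12 of 76 untreated calls (15.8%) were also called with L-proline, where 6.28% of all were called. Within the class of 5 to 20% the untreated calls averaged 24.3 points with L-proline against 9.85 for the class, and at 20 to 40% 20.1 against 12.6. At 80 to 95% the 23 untreated calls averaged 0.849 points with L-proline, below the 2.36 of their class. With so few losses called, 0 CpGs were called lower in both pairs, and 0 in opposite directions. The 64 L-proline losses averaged a gain of 4.14 points in the untreated pair.

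Any of the 92 CpGs on chromosome 18 were left out of the ranking that follows. Of the others, the 5 with the largest gain in the pair where it was smaller are given with their reads. The CpG at position 91835344 of chromosome 2 had 3 of 12 reads methylated on day 2 and 15 of 15 on day 5 in untreated cells, and 4 of 11 and 24 of 24 with L-proline (Fisher's exact test, adjusted p = 0.0442 and 0.0125). Its 95% Wilson intervals were 8.89 to 53.2% against 79.6 to 100% in untreated cells and 15.2 to 64.6% against 86.2 to 100% with L-proline. At position 99674435 of chromosome 14 the shares went from 10.3% (3 of 29 reads) to 73.3% (11 of 15) and from 25.9% (7 of 27) to 85% (17 of 20). The next CpG, at position 6929953 of chromosome 7, started lower and went from 5.41% (2 of 37 reads) to 63.2% (12 of 19) and from 9.38% (3 of 32) to 75% (21 of 28). At position 119894355 of chromosome 8 the level rose from 6.67% (2 of 30 reads) to 63.6% (21 of 33) and from 11.5% (3 of 26) to 81.4% (35 of 43), with adjusted p = 0.00814 and 4.15e-05 in Fisher's exact test. At position 142907239 of chromosome 6 it rose from 36.2% (17 of 47 reads) to 87.9% (29 of 33) and from 34.6% (9 of 26) to 91.1% (51 of 56). In each of these 5 CpGs both day 5 libraries lay above both day 2 libraries. The CpGs were chosen by these same calls and differences, so their order and p-values are a description only.

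Calls came with gains at the next CpG. The neighbour was taken as the next compared CpG toward higher positions. Where it lay within 100 bases, it was itself called for 4.85% of untreated calls and 19.7% of L-proline calls. Over all CpGs these shares were 0.102% and 0.726%. CpGs this close are often on the same reads. For the first CpG at more than 100 and up to 1000 bases in the same direction, the shares were 0.402% (1 of 249) and 8.004% (156 of 1949). In the other pair, whose reads are separate, the neighbours within 100 bases averaged gains of 15.7 points beside untreated calls and 10.6 beside L-proline calls. All such neighbours averaged 2.39 with L-proline and 1.93 in untreated cells. Most CpGs have little methylation and the neighbours were not sorted by starting level, so these averages are a low baseline. The highest class means by the vitamin C library of day 2, at 20 to 40%, were 12.6 points with L-proline and 10.997 in untreated cells. The gains beside calls thus cannot be told apart from those of a like starting level.

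Reads were also summed over tiles of 1 kb and described by the size of the difference alone, with no test, so the counts are not of the same kind as the calls above. Of 58608 tiles with at least 3 CpGs, 2984 (5.09%) were at least 20 points higher on day 5 in untreated cells and 3853 (6.57%) with L-proline. Both pairs were at least 20 points higher in 898 tiles (1.53%), which is 30.1% of the untreated list and 23.3% of the L-proline list. At 20 to 40% in the vitamin C library of day 2, 40.7% of the untreated list was also in the L-proline list. That list took 29.1% of the class. Of the L-proline list there, 32.6% was in the untreated list, which took 23.3% of the class. At 5 to 20% the shares were 63.6% against 35.1%, and 20.2% against 11.1%. In the other direction 55 tiles (0.0938%) were at least 20 points lower in untreated cells, 16 (0.0273%) with L-proline and 1 (0.00171%) in both. Across all tiles the differences of the pairs had a Pearson r of 0.41, and across the 3856 tiles at 20 to 40% in the vitamin C library of day 2 it was 0.24. Tiles of 1 library share its depth and its overall level, so these values are descriptions.

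**Figure D2:**
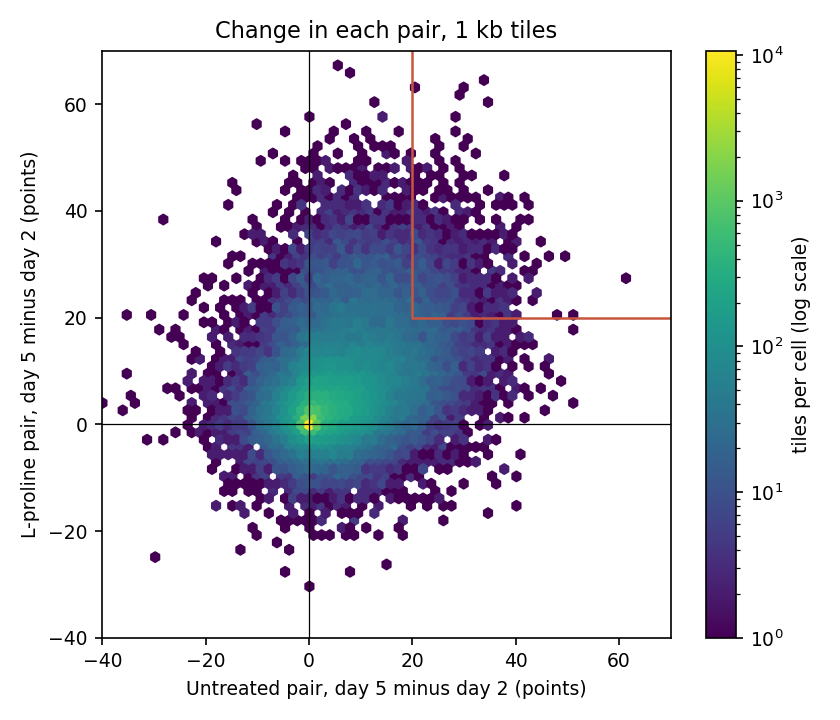
Difference between day 5 and day 2 in each 1 kb tile (percentage points), untreated pair on the horizontal axis and L-proline pair on the vertical axis, with colour for the number of tiles on a log scale and both axes drawn from -40 to 70. The red lines bound the 898 tiles at least 20 points higher in both pairs, and the opposite corner holds 1 tile at least 20 points lower in both.

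The order of tiles within a starting level carried over from one pair to the other. Among tiles at 20 to 40% in the vitamin C library of day 2, with at least 5 CpGs and 100 reads in each library, those that lost up to 10 points in untreated cells gained 8.20 points on average with L-proline (130 tiles). The mean gain with L-proline was 12.7 points where untreated cells gained 0 to 10 (429 tiles), 15.6 at 10 to 20 (508 tiles), 18.6 at 20 to 30 (266 tiles) and 21.1 at 30 or more (48 tiles). The L-proline level on day 2 was 48.9% in the first of these bins and 55.6% in the last, so the larger gains stood beside higher levels on day 2. Read the other way, untreated gains went from 5.46 to 17.6 points over the same bins of L-proline gain, and there the untreated day 2 level was lowest, at 31.3%, in the top bin and 39.6% in the bottom one. Even tiles that lost methylation in one pair gained in the other on average.

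**Figure D3:**
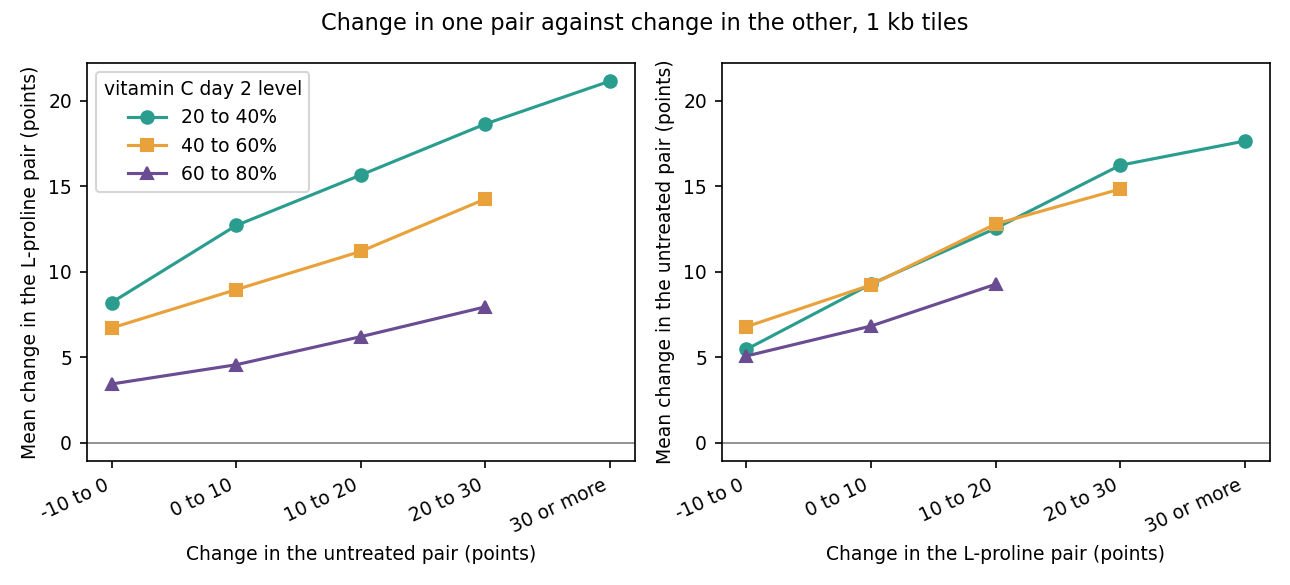
Mean difference between day 5 and day 2 in one pair (vertical axes, percentage points) for 1 kb tiles binned by the difference in the other pair (horizontal axes), for 3 classes of starting level from the vitamin C library of day 2. Bins of fewer than 20 tiles are not drawn. Each line climbs from left to right, from 8.20 to 21.1 points for the tiles of 20 to 40% on the left.

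The 898 tiles went from a mean of 32.1% to 58.8% in untreated cells and from 47.3% to 75.8% with L-proline. They hold 4153 CpGs, a median of 4 per tile, and 91.2% of these CpGs were higher on day 5 in both pairs. In 617 tiles (68.7%) each CpG was higher in both. The L-proline library of day 2 was above the untreated one of day 2 in 97.0% of the tiles. It was also higher over all 58608 tiles, with a mean of 47.1% against 42.5%. By starting level in the vitamin C library of day 2, 366 of the 898 lay at 20 to 40% (9.49% of the tiles of that class) and 300 at 5 to 20% (7.09%). At 40 to 60% there were 153 (2.56%), under 5% 36 (0.160%) and at 60 to 80% 28 (0.266%). The few others had no listed CpG in that library. The 898 tiles took 1.03% to 2.02% of the tiles of each chromosome. The values that chose these tiles are the same differences, so their size is a description.

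The named tiles are the 8 with the largest gain in the pair where it was smaller, among 28730 tiles with at least 5 CpGs and 100 reads in each library. Their positions are those of mm9, for which no annotation was used here. Chromosome 18 was left out of this ranking and of the rankings of common losses and of differences between the pairs. The first, on chromosome 12 from 113515001 to 113516000 (6 CpGs), went from 14.0% to 55.9% in untreated cells and from 43.9% to 87.1% with L-proline, and all 6 CpGs were higher in both pairs. On chromosome 5 from 127839001 to 127840000 (9 CpGs) the values were 21.4% and 56.9% untreated and 44.3% and 85.4% with L-proline. In both tiles the L-proline pair started higher and gained as much or more. On chromosome 14 from 90298001 to 90299000 (9 CpGs), both pairs started and ended alike, at 17.7% and 56.1% untreated and 21.9% and 56.0% with L-proline. On chromosome 17 from 66687001 to 66688000 (6 CpGs) the values were 14.1% and 47.9%, and 46.4% and 80.8%. On chromosome 12 from 106134001 to 106135000 (7 CpGs) they were 45.8% and 79.5%, and 53.3% and 86.8%. The tile on chromosome 11 from 94962001 to 94963000 (5 CpGs) started lowest, at 8.05%, and reached 40.7% in untreated cells, and with L-proline it went from 18.9% to 70%. The remaining ones were chromosome 16 from 35696001 to 35697000 (34.7% and 67.2%, then 43.5% and 76.8%) and chromosome 17 from 78679001 to 78680000 (17.8% and 53.9%, then 36.8% and 68.9%). Each value rests on more than 100 and at most 388 reads in the named tiles, with 95% Wilson half-widths of 3.21 to 8.96 points, which are too narrow where CpGs share a read.

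**Figure D4:**
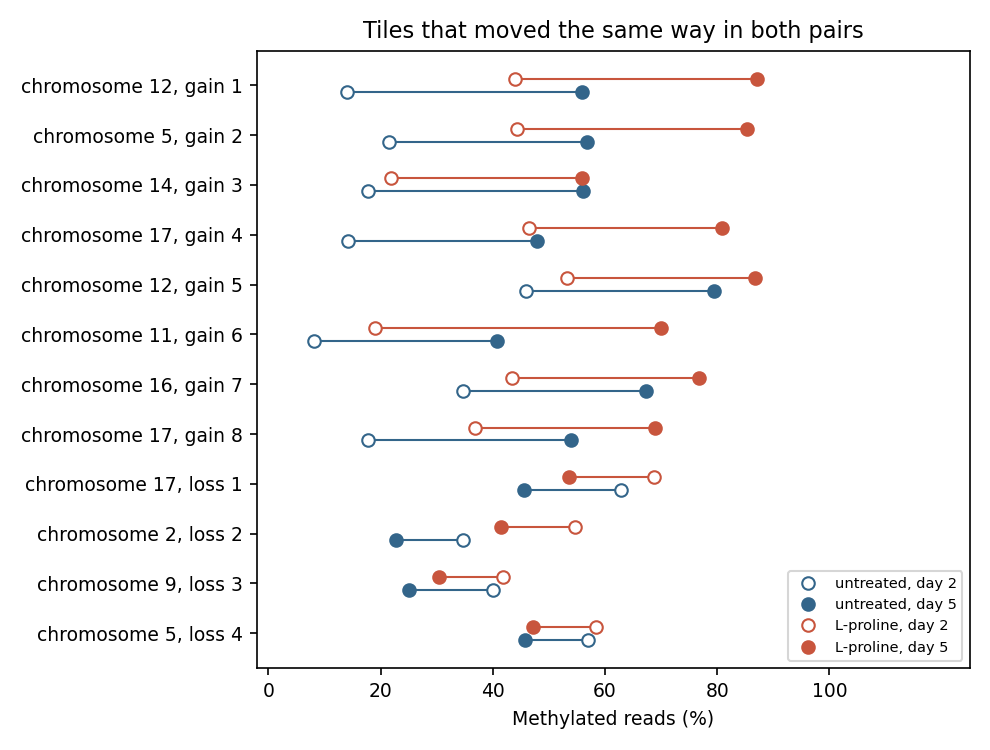
Methylated reads (%, horizontal axis) in the 8 tiles with the largest gain and the 4 with the largest loss common to both pairs, 1 tile per row, with open circles for day 2, filled circles for day 5 and lines joining the libraries of a pair. In the gain rows the filled circles stand at least 32.1 points to the right of the open ones, and in the loss rows they stand to the left. Tiles of chromosome 18 were left out.

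Among the tiles with at least 5 CpGs and 100 reads in each library, the largest common losses were smaller than the largest common gains. The first was on chromosome 17 from 24794001 to 24795000, which went from 62.8% to 45.5% in untreated cells and from 68.7% to 53.6% with L-proline. The others were on chromosome 2 from 157387001 to 157388000 (34.6% and 22.7%, then 54.7% and 41.5%), chromosome 9 from 40339001 to 40340000 (40.1% and 25%, then 41.8% and 30.4%) and chromosome 5 from 33994001 to 33995000 (56.9% and 45.8%, then 58.3% and 47.1%). No CpG in these 4 tiles was called lower by Fisher's exact test. Single CpGs went both ways: in untreated cells 3 of 6, 3 of 7, 4 of 7 and 3 of 9 were higher on day 5, in the order of the tiles above. With L-proline it was 3 of 6, 0 of 7, 3 of 7 and 3 of 9. These losses are thus of reads summed over a tile. Apart from the chromosome 2 tile with L-proline, where 0 of 7 CpGs were higher, they were not shared by all CpGs of the tile.

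Whether the gain of a CpG differed between the pairs was tested directly. A normal test of the difference between the log odds ratios of the pairs, with Benjamini-Hochberg adjustment, called 6 CpGs with the larger gain in L-proline (0.000867%) and 0 with the larger gain in untreated cells (0%). Unadjusted p-values under 0.05 numbered 11283 and 7431. A p above the threshold in this test does not show that the pairs gained alike.

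Some tiles gained in 1 pair by these values and not in the other. On chromosome 16 from 23165001 to 23166000 the untreated pair stayed at 28.4% and 31.03% while the L-proline pair went from 29.3% to 78.6%. On chromosome 14 from 56328001 to 56329000 the values were 11.8% and 7.60% untreated against 9.03% and 49.5% with L-proline. On chromosome 3 from 96278001 to 96279000 the pairs moved apart, from 57.9% to 28.3% untreated and from 46.2% to 64.4% with L-proline. In the other direction, on chromosome 5 from 145947001 to 145948000, untreated cells went from 43.9% to 91.2% and L-proline cells from 76.6% to 81.2%. On chromosome 10 from 15066001 to 15067000 the values were 59.1% and 85.7% against 73.7% and 64.5%, and on chromosome 5 from 115994001 to 115995000 they were 56.7% and 90.4% against 74.3% and 75.8%. The 3 tiles where untreated cells gained more had started higher with L-proline. These differences between pairs were chosen for their size and carry no test.

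A fit over the 4 libraries did not call any tile. The limma model took the log2 ratio of methylated over unmethylated reads and terms for L-proline and day, which leaves 1 residual degree of freedom. It called 0 of 58608 tiles higher (0%) and 0 lower (0%), with a smallest adjusted p of 0.284. Without adjustment, 9059 higher and 551 lower tiles had a p under 0.05. With each library centred to one median, these counts were 1637 and 2725. Centring subtracts the common shift of a library from each tile and so sets this balance itself. The 898 tiles described above had adjusted p-values of 0.284 to 0.298.

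Promoters were mostly unmethylated and stayed so, and fewer than 1 in 2 of those with some methylation were at least 5 points higher in both pairs. Of 6186 genes whose promoter window (250 bases before to 50 after the start) was placed on the listed CpGs, the mean went from 1.40% to 1.68% in untreated cells and from 1.67% to 2.21% with L-proline. At least 5 points higher were 115 promoters (1.86%) in untreated cells, 187 (3.02%) with L-proline and 83 (1.34%) in both, while 9 (0.145%), 8 (0.129%) and 0 (0%) were at least 5 points lower. Of the 6036 under 5% in the vitamin C library of day 2, 28 (0.464%) were at least 5 points higher in both. Of the 78 at 5 to 20% it was 35 (44.9%), and of the 46 at 20% or above it was 20 (43.5%). The placed promoters are CpG-rich by construction, since each needed 8 CpGs in its sequence.

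Germline genes were among those that gained. Of 20 germline genes listed, 7 had a placed promoter, and 5 of the 7 were at least 5 points higher in both pairs, beside the 1.34% of all placed promoters. None was at least 5 points lower in either pair. The 7 had a median gain of 10.5 points (untreated) and 8.50 points (L-proline), against 0.054 and 0.096 over all promoters, nearly all of which are unmethylated. Promoters at 5 to 20% in the vitamin C library of day 2 had median gains of 5.97 and 8.64 points, and those at 20% or above 6.90 and 8.34. Sycp1, which encodes a protein of the synaptonemal complex that joins paired chromosomes in meiosis, went from 60.6% to 72.7% in untreated cells and from 67.0% to 81.1% with L-proline (8 CpGs, chromosome 3, 102740071 to 102740119). Asz1, a germ cell protein of the piRNA pathway that silences transposons, went from 58.8% to 76.4% and from 75.9% to 84.4% (6 CpGs, chromosome 6, 18059028 to 18059176). Hormad1, a protein of meiotic chromosome axes, went from 32.9% to 40.7% and from 46.8% to 60.9% (16 CpGs, chromosome 3, 95363364 to 95363590). In each of these 3 promoters the day 5 library was higher than the day 2 library of its pair, and L-proline day 5 was the highest of the 4. Slc25a31, the ADP/ATP carrier of the testis, went from 31.01% to 41.7% and from 43.0% to 57.8% (6 CpGs, chromosome 3, 40512596 to 40512816). Mael, another gene of transposon silencing in germ cells, went from 11.5% to 22.0% and from 16.6% to 22.5% (10 CpGs, chromosome 1, 168168829 to 168168904). Ddx4, the germ cell RNA helicase known as Vasa, stood at 8.27% and 11.98%, then 13.7% and 17.8%, a difference under 5 points in both pairs (19 CpGs, chromosome 13, 113442469 to 113442611). Zpbp2, a gene of the sperm acrosome, was near 0 throughout, from 0% to 1.32% (6 CpGs, chromosome 11, 98412420 to 98412455).

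**Figure D5:**
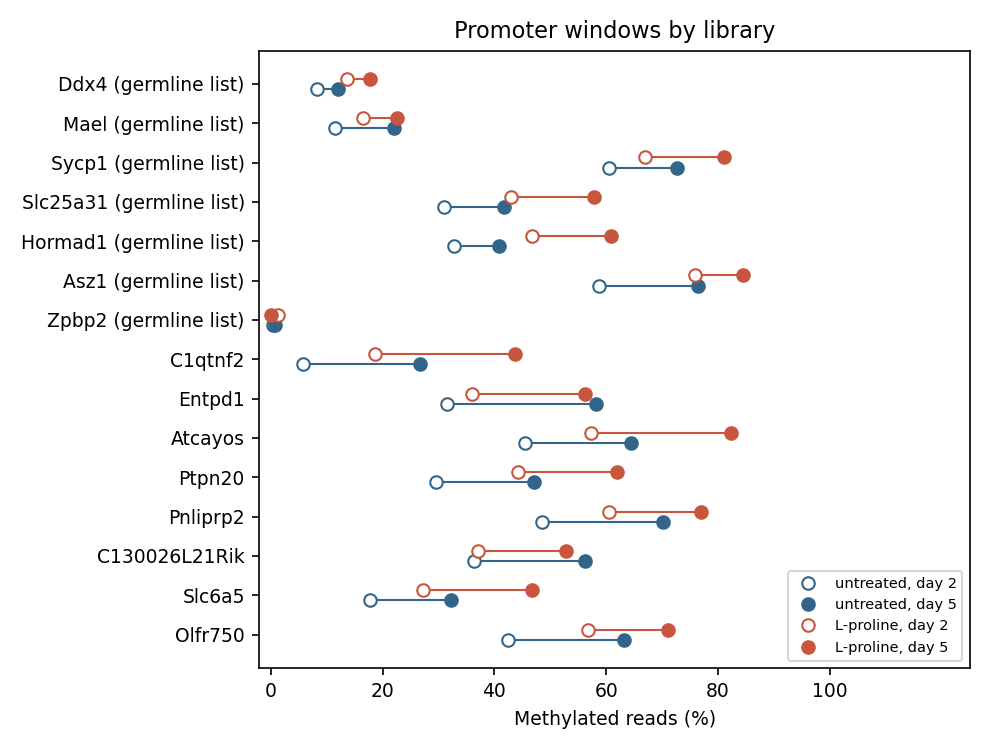
Methylated reads (%, horizontal axis) in the promoter windows of the 7 germline genes that could be placed and of the 8 other genes with the largest gain common to both pairs, with open circles for day 2, filled circles for day 5 and a line for each pair. Sycp1, Asz1, Hormad1, Slc25a31 and Mael move to the right in both pairs, Ddx4 by 3.71 and 4.06 points, and Zpbp2 stays near 0.

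Within the printed sequences the gain was uneven from CpG to CpG. In Sycp1 the CpG 92 bases before the start went from 13.3% to 48.7% and from 36.2% to 70.5%, and the one 49 bases before it from 48% to 66% and from 33.3% to 76.4%. The CpG 61 bases before the start was already at 92.2% and 96.3% on day 2 and stood at 90% and 94.5% on day 5. In Hormad1 the distal CpGs were the more methylated ones, such as that 208 bases before the start (62.1% and 72.7%, then 65.6% and 66.7%), and the one 55 bases before it was at 0% in both untreated libraries and went from 4.35% to 13.6% with L-proline. In Hormad1 15 of 16 CpGs were higher on day 5 with L-proline and 9 of 16 in untreated cells. In Mael the CpG 16 bases before the start went from 17.5% to 42.5% and from 23.6% to 34.6%. Single CpGs here rest on 16 to 126 reads per library, and of the germline promoters 1 CpG in Mael was called by Fisher's exact test in untreated cells and 1 each in Sycp1 and Asz1 with L-proline, where 0.129% and 0.744% of all placed promoters held a called CpG. The letters CACGTG, a motif that reads the same on both strands, occurred in the 250 bases before the start of 5 of the 7 germline genes (Ddx4, Hormad1, Mael, Slc25a31 and Sycp1), in 9.17% of the 6186 placed promoters and in 6.04% of all 31218 promoter sequences searched. TCCCGC on either strand occurred in 4 of the 7, in 39.6% of the placed ones and in 17.1% of all. The printed sequence of C1qtnf2, which is not on the germline list, also holds both motifs. A match is a description of these letters and shows no bound factor.

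Outside the germline list the largest common gains lay in promoters of varied genes. C1qtnf2, a secreted protein of the C1q and TNF related family, went from 5.78% to 26.7% in untreated cells and from 18.7% to 43.7% with L-proline, with all 8 CpGs higher in both pairs. Its CpG 39 bases before the start went from 6.67% to 43.9% and from 22.5% to 79.5%, and that 4 bases before it from 7.41% to 26.9% and from 12.9% to 77.3%. Entpd1, the ectonucleotidase CD39, went from 31.5% to 58.1% and from 35.9% to 56.2%, with all 6 CpGs higher in both. Slc6a5, a glycine transporter of neurons, went from 17.8% to 32.3% and from 27.2% to 46.7%. Pnliprp2, a lipase of the pancreas, went from 48.5% to 70.2% and from 60.6% to 77.0%. The others among the top 8 were Atcayos, Ptpn20, C130026L21Rik and Olfr750. The values given are the ones that chose these promoters, so they carry no test. With 105 to 943 reads in a library, the Wilson half-widths of the described promoters were 0.641 to 9.27 points, again with CpGs that share reads.

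Promoters of pluripotency genes and of the methylation machinery stayed unmethylated where they could be placed. Of 15 naive pluripotency genes 3 had a placed promoter (Klf2, Tfcp2l1 and Fgf4), and their values ran from 0% to 1.43%. Of 14 genes of the formative and primed states 4 were placed (Fgf5, Lef1, Dnmt3a and Foxa2). Foxa2, a transcription factor of endoderm, went from 2.26% to 3.87% and from 6.92% to 10.9%, and the other 3 stayed at or under 1.29%. Of 13 genes of the methylation machinery 7 were placed (Dnmt1, Dnmt3a, Uhrf1, Uhrf2, Tet2, Tet3 and Tdg), all under 1% in the 4 libraries. In these 3 lists 0 promoters were at least 5 points higher in either pair, which with so few placed says little beside the 1.86% and 3.02% of all promoters.

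The change with time was of the other sign where vitamin C was present. Over the 616929 CpGs listed in all 8 libraries, the differences were 2.20 and 2.71 points without vitamin C, and -0.711 with vitamin C and -0.433 with vitamin C and L-proline. The gap of 3.03 points had an exact permutation p of 0.333, the smallest that 4 differences allow. Of the 898 tiles, 740 had enough CpGs in all 8 libraries. There the untreated pair gained 26.4 ± 5.92 points (SD over tiles) and the L-proline pair 28.3 ± 7.22, the differences that chose the tiles. The vitamin C pair went from 26.9% to 25.03% (-1.83 ± 10.6) and the pair with both supplements from 34.3% to 38.2% (3.88 ± 10.2), against -1.28 and -0.786 over all 49568 such tiles. A term for vitamin C by day in a limma fit of all 8 libraries reached a smallest adjusted p of 0.382 and made 0 calls. Without adjustment its p was under 0.05 in 507 tiles with a positive and 5671 with a negative value. Of the 7 placed germline promoters, 5 were lower on day 5 than on day 2 with vitamin C and 6 with both supplements, and the others were higher. These counts take in differences of any size. With both supplements, for example, Ddx4 went from 5.09% to 4.96% and Zpbp2 from 0.433% to 0%. No share over all placed promoters was set beside these counts, so they do not show a change particular to germline genes. Asz1 went from 42.9% to 29.1% with vitamin C and from 50.2% to 42.3% with both, and Hormad1 from 25.1% (11 of its 16 CpGs) to 14.6% and from 23.3% to 22.5%. Sycp1 was higher with vitamin C, from 34.8% to 44.6%, and stood at 48.4% and 47.1% with both.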

How the data were processed

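RRBS was measured in 8 libraries, 1 per treatment and day, grouped by their titles. Per the submitters' processing notes, CASAVA, BSMAP 2.88 and mm9 were used, and the sources used here do not give their settings or how duplicates were treated. Per CpG, the authors deposited a fraction of methylated reads from 0 to 1 and the coverage, with a minimum of 10 reads. Methylated reads were taken as fraction times coverage, rounded. Fisher's exact test (Benjamini-Hochberg) compared the libraries of a pair. limma 3.58.1 (R 4.3.3) was fitted on log2((methylated + 1)/(unmethylated + 1)) per 1 kb tile. PCR reads are not independent molecules, and p-values measure counting error or the spread between these libraries only.

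Promoters were added after the files were seen. RefSeq sequences with at least 8 CpGs were searched among the listed positions of their chromosome by CpG spacing, with at least 6 listed CpGs, a unique place and an order that fits the neighbours within 10000 bases. This placed 7816 of 15382. With mirrored CpG positions 48 were placed. Values needed 5 CpGs in the 4 libraries. No coordinates were converted between builds, and chromosome 18 has no promoters here.

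The CpG set and gene lists were chosen with earlier results of these data known. Named tiles have at least 5 CpGs and 100 reads in each of the 4 libraries and the largest smaller gain (8), smaller loss (4) or difference between pairs (3 each way). Named CpGs are the 5 largest smaller gains among calls in both pairs. Chromosome 18 was left out of the named tiles and the named CpGs. Named promoters are the listed genes and the top of the same ranking. The tests were also run on simulated data with known changes. There the test of the difference between the pairs found almost none of the changes, and limma missed most where few tiles had changed. Alternatives were other coverage minimums, thinning, classing libraries, tile sizes, pseudocounts, centring and no pairing by supplement.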

Additional observations from a re-analysis of the deposited data

Results flagged for a closer look

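Mean methylation was higher on day 5 in both pairs without vitamin C and lower in both pairs with it. The gap was 3.03 points (exact permutation p = 0.333, the smallest that 4 differences allow).

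The change differed between the untreated and the L-proline pair at 6 CpGs, each with the larger gain with L-proline (normal test of the difference between log odds ratios, adjusted over 692306 CpGs). Of these, 5 lie at depths of 929 to 64581 reads in each library, and their differences between day 5 and day 2 were -3.66 to 0.5003 points in untreated cells and 1.198 to 10.3 with L-proline. The other, at position 96121906 of chromosome 11, has 41 to 78 reads and went from 38.5% to 17.1% in untreated cells and from 20.5% to 75% with L-proline (adjusted p = 0.00841 in that normal test).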

How the results depend on the processing

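The mean difference of 2.62 points kept its sign in all 7 alternatives. It was 2.12 with a minimum of 20 reads, 1.63 with 30, 3.99 when each library kept its own full list of CpGs, and 3.44 for reads pooled over CpGs. CpGs with more reads were less methylated (37.3% in untreated cells on day 2 at a lowest coverage of 10 to 15 reads, 6.37% at 51 to 100), while among CpGs at 20 to 80% in the vitamin C library of day 2 the untreated gain was 8.36 points at 10 to 15 reads and 9.22 at 51 to 100. The mean gain of CpGs at 20 to 80% was 10.1 points, 8.26 when classed by the vitamin C library of day 2 and 12.4 when classed by the mean of the 4 libraries. The gain in tiles of 3 to 5 CpGs exceeded that in tiles of 21 to 40 by 5.55 points, and the like contrast by distance to the nearest CpG was 4.93. Against 773 untreated and 5634 L-proline calls, separate tests gave 504 and 2820 at a minimum of 30 reads and 2 and 42 after thinning to 20 reads. The overlap was 92 CpGs by tested calls and 898 tiles by an untested bound of 20 points, which differ in both unit and criterion. With 10 points as the bound 5491 tiles gained in both pairs, and with at least 5 CpGs 328 did. The shares of called neighbours at more than 100 and up to 1000 bases were 0.402% and 8.004%. The 83 promoters were 26 at a bound of 10 points and 41 with at least 8 CpGs. limma called 0 tiles in each of its 7 alternatives. Without pairing by supplement its smallest adjusted p was 0.694, and 3328 higher and 229 lower tiles had an unadjusted p under 0.05. Leaving out a library was not possible, since it would leave a pair without one of its days. Depth limits single sites most: at the 11 to 56 reads of the 5 named CpGs, the 95% Wilson half-widths were 6.90 to 24.7 points.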
